A study of Homo sapiens with 60 samples.

Results

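The genes described here are 37 human genes of the lysosome and of autophagy, followed by name through every treatment of a study of herbal extracts in HT29 cells. They were chosen by function: 4 lysosomal membrane proteins (LAMP1, LAMP2, LAMP3 and MCOLN1), 12 hydrolases and their partners, 7 subunits of the proton pump, 11 autophagy factors, and the transcription factors TFEB and TFE3 with the small GTPase RRAGD. The choice was made with earlier results of these data known, so their shares are not those of an independently chosen set. All 37 are among the 60675 genes of the deposited table, and 36 passed the filter on low counts. RRAGD did not, with 0 to 2 counts in any library, and is not tested.

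HT29 is an established line of human colorectal adenocarcinoma, grown here in medium with serum, and polyadenylated RNA was sequenced 24 h after treatment. The 60 libraries fall into 20 groups of 3. One group received vehicle (0.1% DMSO in the sample labels, 2% in the series' design text), and another received 10 µM wortmannin, an inhibitor of phosphoinositide 3-kinases that the study used as positive control. The other groups received hot-water extracts of 6 medicinal plants at 3 doses each. Zingiberis Rhizoma Recens (fresh ginger), Zingiberis Rhizoma (dried ginger), Pinelliae Tuber, Scutellariae Radix and Zizyphi Fructus were given at 500, 100 and 20 µg/mL, called high, medium and low. For Coptidis Rhizoma the doses were 290, 58 and 11.6 µg/mL. Per the design text, an extract whose IC20 lay below the usual high dose was used at that inhibitory concentration and at dilutions of it, so the high doses of the extracts are not matched in effect on the cells. The library codes place vehicle alone in a set and wortmannin alone in another, so a difference from vehicle cannot be told apart from a difference between sets. High and low doses of an extract share a set, and these comparisons are given first. The labels are silent on separate cultures within a group. The p-values rest on the spread of libraries within groups, estimated over all 20 groups together, and that spread may be technical.

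Lysosomes are acidic organelles in which hydrolases break down proteins, lipids and glycans, and a vacuolar proton pump keeps them acidic. Autophagy delivers cytoplasm to them: the ULK1 kinase and a lipid kinase complex with PIK3C3 and BECN1 start a membrane, ATG5 and ATG7 attach LC3 and GABARAP proteins to it, and receptors such as SQSTM1 bring in cargo. TFEB and TFE3, held in the cytoplasm by mTORC1 when nutrients are plentiful, enter the nucleus in starvation and bind the CACGTG core of the CLEAR element near the start of many of these genes. RNA levels, as measured here, are not a measure of autophagic flux.

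Library totals ran from 11093671 to 34447663 counts. All 12 colon epithelium markers were detected in every library, KRT8 at 5343 to 8577 CPM (counts scaled to the size of the library), EPCAM at 451 to 713 and CDX1 at 0.448 to 2.14. Of the leukocyte markers, CD163 was at 0 in all 60 libraries and PTPRC in 38. CD14, ITGAM and CD68 were detected in every library, at 1.96 to 5.99, 0.851 to 3.02 and 3.95 to 11.7 CPM. Of the fibroblast markers, PDGFRA was at 0 in all 60 and COL1A2 in 58, while COL1A1, LUM and ACTA2 were detected in every library. Together the 10 fibroblast markers reached 2.11 to 4.39 CPM. The 11 leukocyte markers summed to 1455 to 2441 CPM, of which LYZ held 1442 to 2424. In 4 libraries (vehicle replicate 1, Zingiberis Rhizoma Recens low replicate 1, Zingiberis Rhizoma high replicate 2 and Zizyphi Fructus high replicate 3), known from earlier results to stand apart, ribosomal protein genes took 6.33 to 8.24% of counts, against 4.96 to 5.86% in the 53 others outside Coptidis Rhizoma high.

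Promoter windows, from 250 bases before to 50 bases after the start, were found in RefSeq's table (GRCh38.p14) for 25 of the 37 genes, and their sequences are shown because the TFEB family binds DNA through the motif they were searched for. CACGTG, which reads the same on both strands, occurred in the windows of 6 of these 25 genes (24%): LAMP1, MCOLN1, NEU1, CTSD, CTSA and ATP6V0D1. Over all 27305 genes with a window it occurred in 8.77%, and in 7.26% of all 35116 windows. The longer TCACGTGA, which contains it, occurred in 4 of the 25 (16%) against 1.18% of all genes. The sequences below are upstream of the RefSeq start, with CACGTG in capitals, and run 5′ to 3′ on the gene's strand. LAMP1 holds 5 copies in the 200 bases before its start (chr13:113297039-113297238, plus strand). MCOLN1 holds 2 copies in the last 80 bases (chr19:7522544-7522623, plus strand), and NEU1 holds 1 copy between bases 160 and 86 before its start (chr6:31862907-31862981, minus strand). Short stretches around the motif are given for CTSD (chr11:1763959-1763984, minus strand), CTSA (chr20:45891289-45891318, plus strand) and ATP6V0D1 (chr16:67481201-67481226, minus strand), where GENCODE 29 places the first exon of some transcripts over or beside the site.
LAMP1: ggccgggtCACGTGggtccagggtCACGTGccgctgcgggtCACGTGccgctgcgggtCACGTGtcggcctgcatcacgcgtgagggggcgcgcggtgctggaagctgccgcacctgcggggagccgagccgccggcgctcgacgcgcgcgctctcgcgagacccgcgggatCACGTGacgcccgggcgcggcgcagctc
MCOLN1: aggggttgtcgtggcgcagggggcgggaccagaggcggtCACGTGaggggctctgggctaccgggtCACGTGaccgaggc
NEU1: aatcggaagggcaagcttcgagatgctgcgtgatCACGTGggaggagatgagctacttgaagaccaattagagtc
CTSD: cggccgcgccCACGTGaccggtccgg
CTSA: ctgtCACGTGgcgccggagttCACGTGact
ATP6V0D1: cccttatggtCACGTGaggcgcttgc

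With the high dose of Coptidis Rhizoma, 8 of 11 autophagy factors rose against the low dose and none fell, in a comparison in which 52.4% of all genes passed the test. TFEB and TFE3 also rose, while 4 of 12 hydrolases rose and 5 fell, and 1 of 4 membrane proteins rose and 2 fell. GABARAPL2, ATG7 and UVRAG, at log2 changes of 0.10, -0.02 and -0.11, did not pass. Against the low dose, MAP1LC3B rose 3.74-fold, GABARAPL1 2.98-fold, ULK1 2.69-fold and SQSTM1 2.02-fold, and TFEB and TFE3 rose 1.85-fold and 1.55-fold. LAMP3 rose 70.7-fold from a very low level. GLA and GUSB fell by 0.66 and 0.46 on the log2 scale, and LAMP2, CTSD and CTSA did not pass the test. In all, 17 members rose and 8 fell of 36 tested, at a Benjamini-Hochberg adjusted p below 0.05 in edgeR's quasi-likelihood test over all 16608 genes. Of all genes tested, 27.1% passed as higher and 25.3% as lower. The share of the members that passed was 69.4%, and their median log2 change was 0.11 against 0.00 over all genes. In bulk RNA, fewer cells of a kind and less RNA per cell cannot be told apart.

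**Figure D1:**
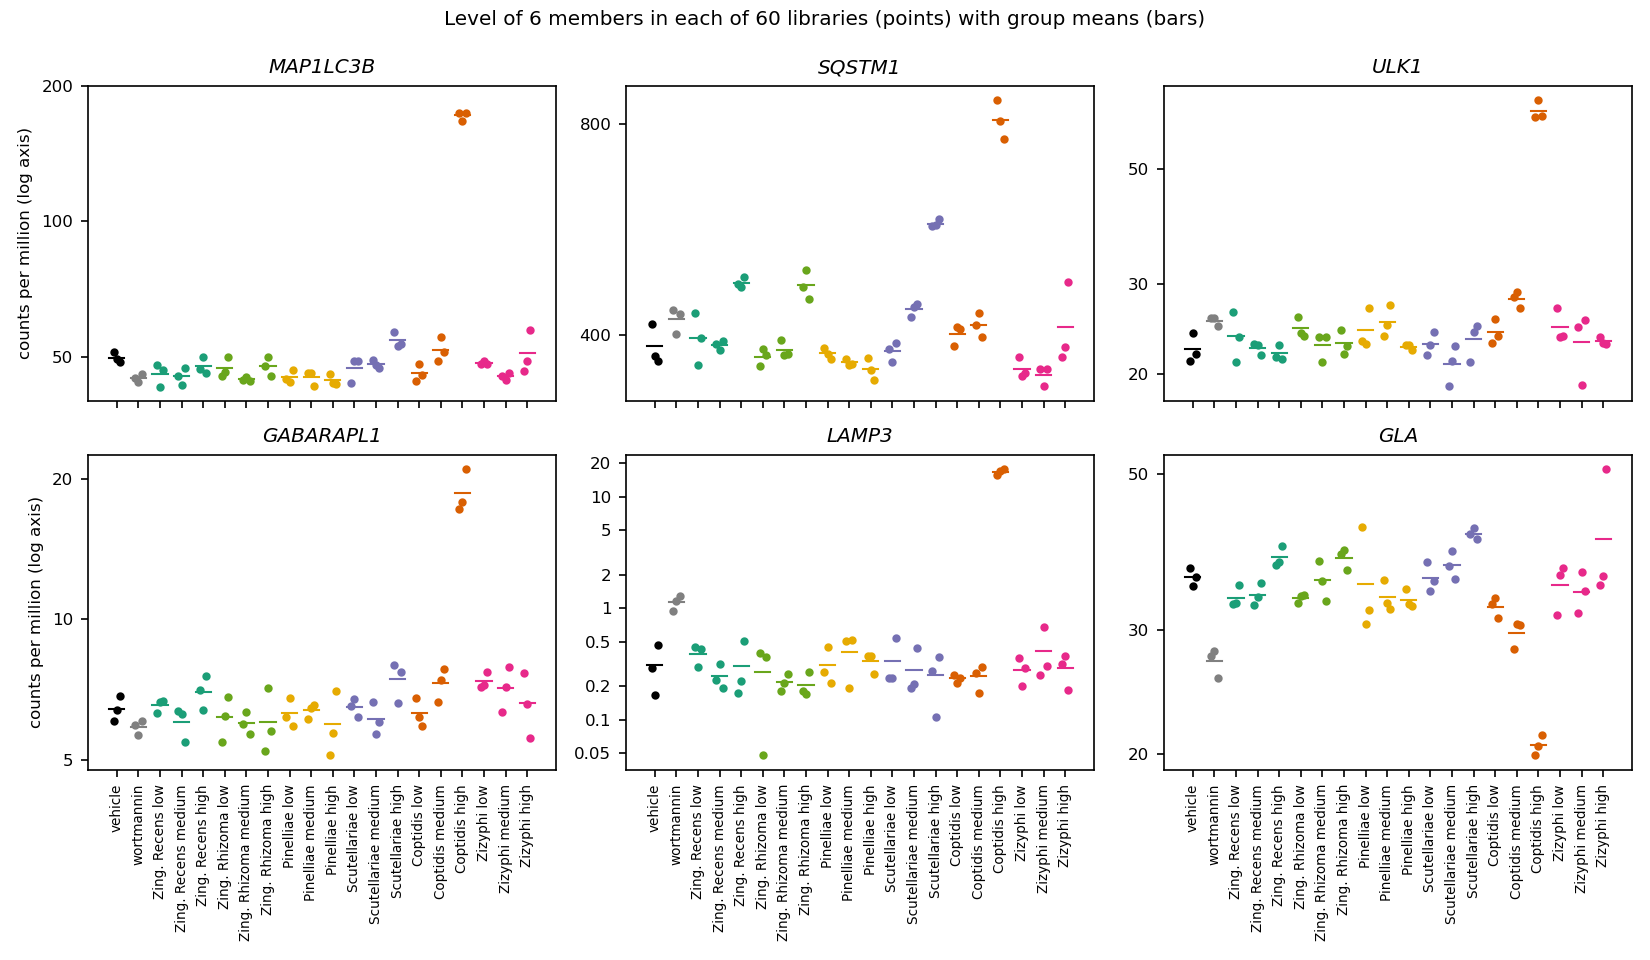
Level of 6 members (CPM, log axis) in each of the 60 libraries, with points for libraries and bars for the means of 3. The 3 Coptidis Rhizoma high libraries lie at 167 to 174 CPM of MAP1LC3B and 762 to 866 CPM of SQSTM1, above all 57 others, and at 19.9 to 21.3 CPM of GLA, below all 57 others.

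Among the autophagy factors, 8 of 11 rose and none fell in that comparison, where 27.1% of all genes passed as higher and 25.3% as lower. MAP1LC3B encodes LC3B, the ubiquitin-like protein attached to autophagosome membranes (chromosome 16, 87383995 to 87404779, plus strand, GRCh38). Its level was 174, 167 and 174 CPM in the 3 high-dose libraries, 49.0, 55.2 and 51.3 at the medium dose and 44.1, 48.1 and 45.6 at the low dose. The high-dose libraries did not overlap the others, and the log2 change from low to high was 1.90 ± 0.05 (SE, adjusted p = 2.83e-33). SQSTM1 encodes p62, a receptor for ubiquitinated cargo that is itself degraded by autophagy (chromosome 5, 179806398 to 179838078, plus strand). It stood at 866, 809 and 762 CPM at the high dose, 414, 431 and 398 at the medium dose, and 387, 411 and 408 at the low dose. Its log2 change from low to high was 1.01 ± 0.06 (adjusted p = 1.24e-20), and again no high-dose library reached down to the others.

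ULK1, the kinase that starts autophagy (chromosome 12, 131894651 to 131923167, plus strand), was at 63.1, 68.0 and 63.5 CPM at the high dose and at 23.1, 25.6 and 23.7 at the low dose, a log2 change of 1.43 ± 0.07 (adjusted p = 2.73e-22). Its medium-dose libraries, at 28.3, 28.9 and 26.9 CPM, all lay above the low-dose ones. GABARAPL1, a relative of LC3B (chromosome 12, 10212458 to 10223130, plus strand), was at 17.2, 17.9 and 21.0 CPM at the high dose and 6.78, 6.16 and 5.91 at the low dose, a log2 change of 1.58 ± 0.10 (adjusted p = 5.34e-19). The medium dose gave 6.64, 7.40 and 7.84 CPM, which overlaps the low dose. The other 4 that rose were WIPI1, which binds the lipid made by PIK3C3, with a log2 change of 0.70, and BECN1, PIK3C3 and ATG5, with changes of 0.20 to 0.34. GABARAPL2, ATG7 and UVRAG had log2 changes of 0.10, -0.02 and -0.11 and did not pass. The difference between GABARAPL1 and its paralogue GABARAPL2 was not tested.

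LC3B has a near-identical copy gene, MAP1LC3B2, at a mean of 0.638 CPM in the high-dose libraries and 0.174 in the low-dose ones, and the split of reads that fit both copies is uncertain. GABARAPL3, the copy of GABARAPL1, was at 0 in 59 libraries. Several members also share exon positions with a gene on the opposite strand. The library kit marks strand, but whether the counting used it is not given in the sources used here. In 6 members the other gene reached at least 10% of the member's level. On the log2 scale their partners changed less in the Coptidis Rhizoma comparison. FBXO31 beside MAP1LC3B changed by 0.31, MGAT4B beside SQSTM1 by -0.11 and PSME3 beside BECN1 by 0.12. EIF2S1 beside ATP6V1D changed by 0.03, ARSG beside WIPI1 by 0.15 and VGLL4 beside ATG7 by 0.01. FBXO31 and PSME3 passed edgeR's test (adjusted p = 4.33e-05 and 0.0084). PSME3, EIF2S1 and VGLL4 stood at 413%, 281% and 157% of their member's mean level, so the same log2 change is more CPM in these partners than in the member. MCOLN1 shares exon positions with PNPLA6 on the same strand, which strand cannot separate, and PNPLA6 stood at 454% of its level. PNPLA6 had a log2 change of 0.08 in this comparison and did not pass, where MCOLN1 was at -0.28; against vehicle at the high dose PNPLA6 was at 0.20 and MCOLN1 at -0.49. The split of reads that fit both genes is uncertain.

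Both TFEB family members that could be tested rose, where 27.1% of all genes passed as higher. TFEB (chromosome 6, 41683978 to 41736259, minus strand) was at 28.1, 27.5 and 24.8 CPM at the high dose, 17.1, 18.0 and 17.4 at the medium dose and 13.4, 14.8 and 15.0 at the low dose. The 3 doses did not overlap, and the log2 change from low to high was 0.89 ± 0.10 (adjusted p = 9.73e-11). TFE3 was at 101, 102 and 94.6 CPM at the high dose and 62.3, 63.8 and 65.0 at the low dose, a change of 0.63 ± 0.05 (adjusted p = 6.14e-16), with 66.0, 69.1 and 69.6 at the medium dose. The remaining relatives, MITF and TFEC, were at most at 0.539 and 0.0397 CPM in any library. These are levels of RNA; the place of TFEB protein in the cell was not measured.

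The 12 hydrolases and partners were split, with 4 higher and 5 lower at the high dose. Of all genes, 27.1% passed as higher and 25.3% as lower. CTSL, a cysteine protease, was at 9.30, 9.24 and 9.63 CPM against 3.10, 3.59 and 3.89 at the low dose, a log2 change of 1.41 ± 0.12 (adjusted p = 5.67e-14). All 3 high-dose libraries lay above the 57 others, whose highest value was 5.87 CPM. The others that rose changed less: NEU1, the sialidase, by 0.31, PSAP, the precursor of the saposins that help lipid breakdown, by 0.23, and GLB1, beta-galactosidase, by 0.11. GLA, alpha-galactosidase A, went from 32.7, 33.3 and 31.3 CPM at the low dose through 28.2, 30.6 and 30.5 at the medium dose to 19.9, 20.5 and 21.3 at the high dose. The high-dose values were below every other library of the series, whose lowest was 25.6 CPM. GUSB, HEXA, CTSB and TPP1 fell by 0.46, 0.26, 0.23 and 0.24 on the log2 scale. CTSD, CTSA and CTSZ had log2 changes of 0.06, -0.05 and -0.06 and did not pass.

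Of the 4 membrane proteins, LAMP3 gave the widest change of all 36 members. LAMP3, a LAMP relative known from dendritic cells (chromosome 3, 183122213 to 183163839, minus strand), was at 15.7, 17.1 and 17.8 CPM at the high dose and at 0.250, 0.215 and 0.238 at the low dose. That is a log2 change of 6.14 ± 0.29 (adjusted p = 2.81e-24). The medium dose gave 0.262, 0.172 and 0.297 CPM, overlapping the low dose, and no library outside Coptidis Rhizoma high exceeded 1.28 CPM. LAMP1 and MCOLN1, the lysosomal calcium channel, fell by 0.10 and 0.28, and LAMP2 had a log2 change of 0.02 and did not pass. Of the 7 proton pump subunits, ATP6V1D and ATP6V1H were higher by 0.54 and 0.35 and ATP6V0E1 was lower, at -0.23. The other 4 subunits had log2 changes of -0.09 to 0.17. In this comparison 27.1% of all genes passed as higher and 25.3% as lower. The calls of MCOLN1, LAMP1, GLB1, ATG5, PIK3C3 and ATP6V0E1 were lost when a single library was left out, with adjusted p up to 0.213, and those of LAMP1, MCOLN1 and GLB1 also without the low-count filter, at 0.388, 0.0529 and 0.303. GLB1 was also lost, at 0.147, when the libraries of the 2 doses were fitted alone.

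**Figure D2:**
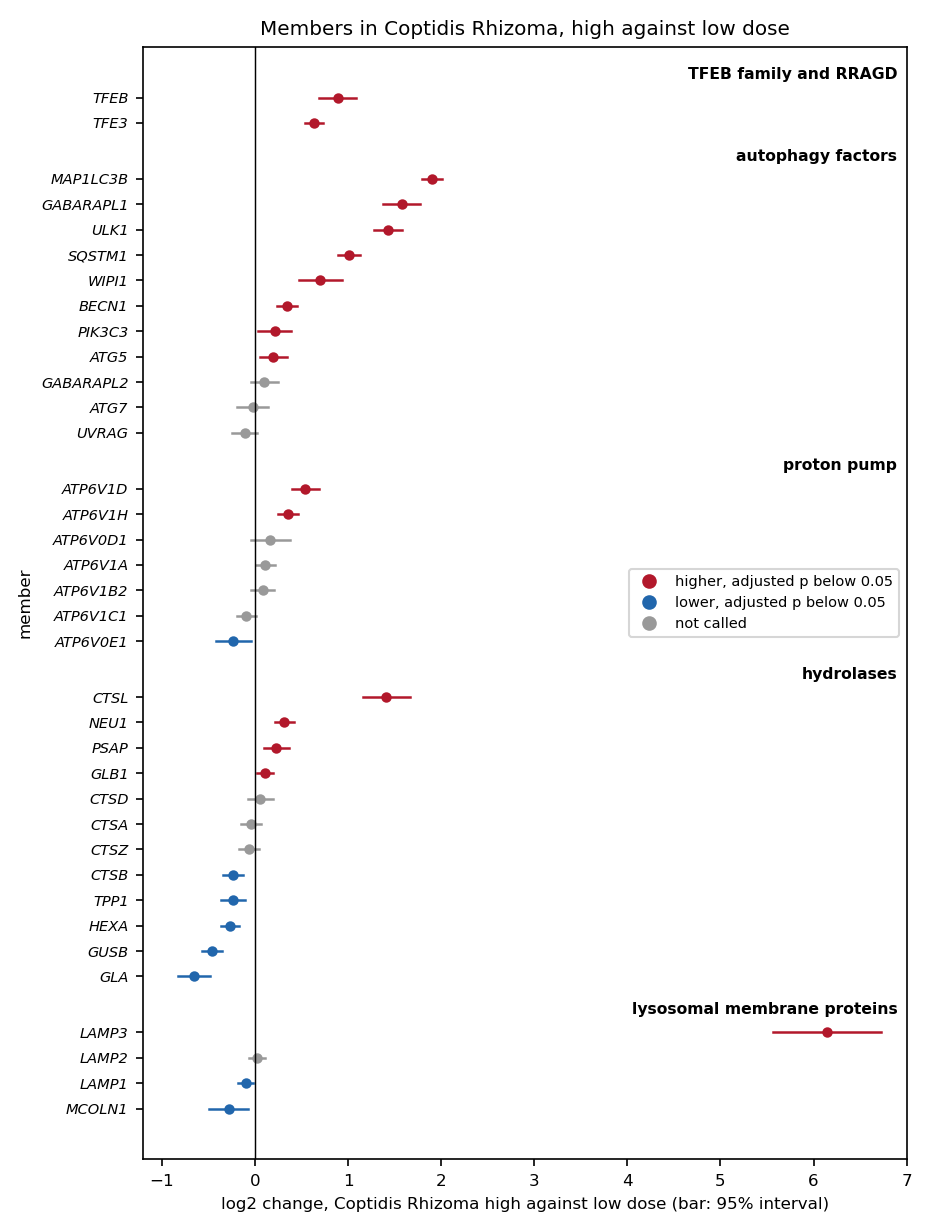
Log2 change of each of the 36 tested members from the low to the high dose of Coptidis Rhizoma, by role; bars are 95% intervals and colours mark the calls. The autophagy factors and TFEB family members lie to the right or near 0, up to 1.90 for MAP1LC3B, the hydrolases lie on both sides, and LAMP3 stands at 6.14.

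The promoter motif and these changes can be set side by side as a description. Of the 14 matched members that rose at the high dose of Coptidis Rhizoma, 1 had CACGTG in its window (NEU1). Of the 5 matched members that fell, 2 had it (LAMP1 and MCOLN1), and of the 6 that did not pass, 3 had it (CTSD, CTSA and ATP6V0D1). LAMP1, with its 5 printed copies, changed by -0.10. TGACNNNGC, the core shared by antioxidant response elements, occurred in the windows of 8 of 25 members (32%) and of 16.1% of all genes, and TGATGNAAT, a C/EBP-ATF composite, in 0 of 25 and 1.22%, both searched on either strand. The absence of a motif says only that these letters are not in this window.

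The Coptidis Rhizoma high libraries differed from the rest in other measures as well. The 37 genes together took 0.480 to 0.501% of counts there, against 0.377 to 0.423% in the 57 other libraries. The autophagy factors alone took 0.134 to 0.145%, against 0.0687 to 0.0703% at the low dose. Mitochondrially encoded genes took 3.77 to 3.99% of counts, against 11.8 to 12.2% at the low dose, and ribosomal protein genes 6.44 to 7.25% against 5.27 to 5.59%. The summed colon epithelium markers were 10714 to 11447 CPM against 11911 to 12669. Of the 12 markers 3 were higher and 5 lower, where 27.1% of all genes passed as higher and 25.3% as lower. The part of these shares in the members' changes was not tested. In 11 of the 36 members the 3 libraries lay above all 57 others, and in 3 (GLA, GUSB and HEXA) below. Over all genes tested these positions held for 14.4% and 11.3%, and for the members they were 30.6% and 8.33%.

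Other genes of the pathway, from 6 further lists also chosen with earlier results of these data known, were tested in the same fit. From the low to the high dose of Coptidis Rhizoma, 52.4% of all genes passed, 27.1% higher and 25.3% lower. Of 13 autophagy receptors 10 rose and none fell, among them CALCOCO2 by 1.49 ± 0.06, OPTN by 1.27 ± 0.07 and TAX1BP1 by 0.70 ± 0.04 (log2), which link ubiquitinated cargo to LC3 proteins. Of 32 genes of the autophagy machinery 17 rose and 5 fell, with WDR45 at 1.26, MAP1LC3A at 2.07 and WDR45B at 0.53. The lists of 21 further lysosomal membrane and transport genes and 40 further hydrolases and activators moved both ways, with 7 higher and 7 lower and with 9 higher and 15 lower. SGSH, a heparan sulfatase, rose by 1.35, whereas GM2A, the ganglioside activator protein, fell by 1.00 and CTSC, another cathepsin, by 0.63. Of 13 further pump genes 4 rose and 3 fell, ATP6V1C2 by 1.11 and TCIRG1 at -0.52 among them. Of 30 genes of nutrient sensing and TFEB control 7 rose and 8 fell. DDIT4 and SESN2, stress-induced inhibitors of mTORC1, rose by 3.39 ± 0.08 and 3.07 ± 0.09, and RRAGC by 0.81. Medians of the lists ranged from 0.59 for the receptors and 0.27 for the machinery to -0.07 for the hydrolases.

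**Figure D3:**
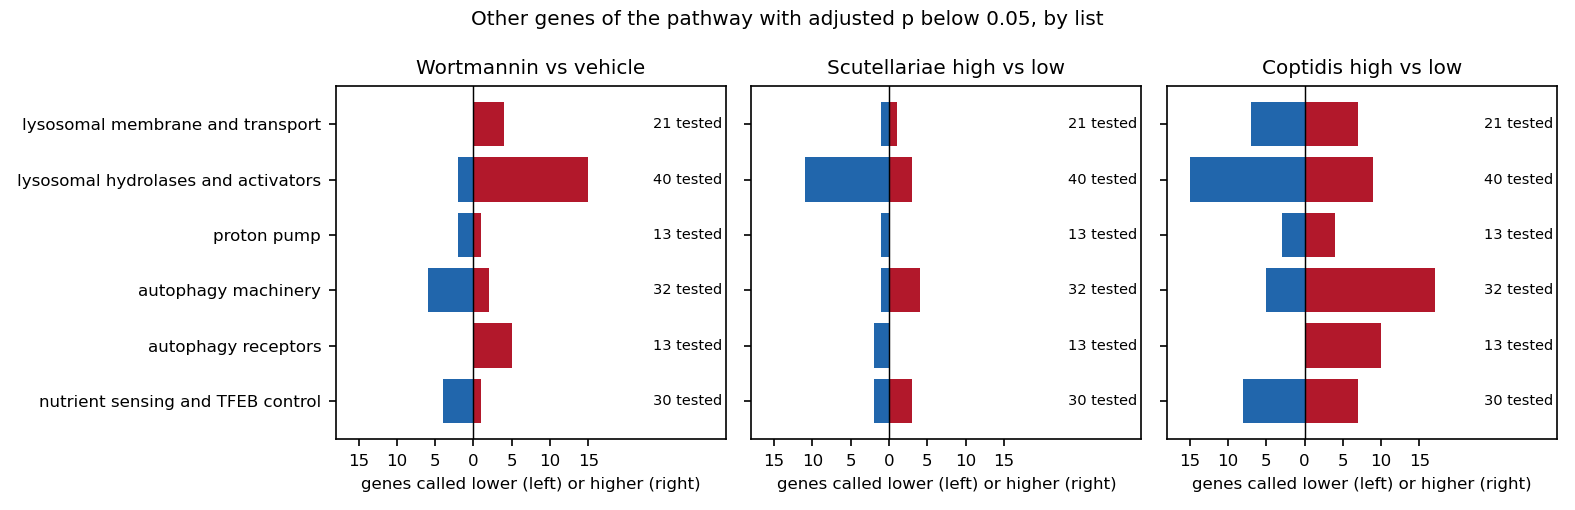
Number of genes in 6 further lysosome and autophagy lists called lower (left) and higher (right) in 3 comparisons. At the high dose of Coptidis Rhizoma, 10 of 13 receptors and 17 of 32 machinery genes are called higher, where 27.1% of all genes are. Of all genes, 20.6% are called in either direction with wortmannin, 16.3% with Scutellariae Radix and 52.4% with Coptidis Rhizoma.

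At the medium dose of Coptidis Rhizoma 0 of 36 members passed against the low dose in edgeR and 0 in DESeq2, with 4 at an unadjusted p below 0.05, where 1.3% of all genes passed. DDIT4 had already risen by 1.31 there. When the 4 libraries that stand apart were left out, TFEB was called at a log2 change of 0.28 (adjusted p = 0.0336) and MAP1LC3B at 0.17 (0.0348), with 367 of all genes called. When the libraries of the 2 doses were fitted alone, TFEB was called at 0.28 (adjusted p = 0.0222) and ULK1 at 0.22 (0.0449), with 482 of all genes called.

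Against vehicle, the high dose of Coptidis Rhizoma gave 26 called members, 17 higher and 9 lower, where 53.8% of all genes passed, 26.6% higher and 27.1% lower. The log2 changes were 1.79 for MAP1LC3B, 5.82 for LAMP3, 1.53 for ULK1, 1.07 for SQSTM1 and -0.79 for GLA. Both comparisons share the high-dose libraries and are not independent.

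Scutellariae Radix, the root of skullcap, gave 7 called members from low to high dose, against 25 with Coptidis Rhizoma. SQSTM1 rose 1.52-fold, CTSL, TFE3, NEU1 and MAP1LC3B rose, and the cathepsins CTSB and CTSZ fell. These 7 of 36 members (19.4%) compare with 16.3% of all genes that passed, 7.92% higher and 8.42% lower, and the members' median log2 change was 0.00. SQSTM1 stood at 572, 575 and 586 CPM at the high dose, 426, 439 and 444 at the medium dose and 382, 367 and 391 at the low dose. The 3 doses did not overlap, and the log2 change from low to high was 0.60 ± 0.06 (adjusted p = 8.61e-12). TFE3 followed the same order, with 80.5, 81.8 and 79.3 CPM, then 71.1, 70.0 and 69.1, then 64.0, 65.2 and 62.9, and changed by 0.33 ± 0.05 (adjusted p = 1.03e-06). TFEB, at 13.5, 14.2 and 14.0 CPM against 14.9, 13.1 and 15.2, did not pass. GLA, CTSD and LAMP2 were also called higher without the 4 libraries that stand apart, with adjusted p of 0.00845, 0.00939 and 0.0219. In that fit 3668 of all genes were called. They were called higher too when the libraries of the 2 doses were fitted alone (0.00314, 0.00173 and 0.0207), with 4141 of all genes called.

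CTSB, a cysteine protease of the lysosome, was at 71.0, 69.3 and 65.6 CPM at the high dose, 76.4, 79.5 and 80.7 at the medium dose and 88.4, 85.4 and 91.0 at the low dose, a change from low to high of -0.36 ± 0.06 (adjusted p = 1.57e-06). CTSZ went from 293, 276 and 261 CPM at the low dose to 241, 230 and 219 at the high dose, a change of -0.27 ± 0.05 (adjusted p = 1.40e-04). NEU1 rose from 54.5, 51.8 and 55.1 to 68.5, 67.2 and 64.9 CPM, by 0.31 ± 0.05 (adjusted p = 6.38e-06). CTSL went from 3.00, 3.28 and 3.58 to 4.76, 4.40 and 5.87 CPM, a change of 0.61 ± 0.14 (adjusted p = 7.83e-04). In these 4 genes the low-dose and high-dose libraries did not overlap. MAP1LC3B, at 56.9, 52.9 and 53.5 CPM against 43.7, 48.9 and 49.1, rose by 0.20 ± 0.06 (adjusted p = 0.00622), a call that was lost without Scutellariae Radix low replicate 1 (0.0616).

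At the medium dose SQSTM1 was the member that passed against the low dose, with 0.20 (adjusted p = 0.0410), where 3.35% of all genes passed. That call was lost when any of the 6 libraries was left out. Against vehicle, 11 members passed at the high dose, 6 higher and 5 lower, where 20.3% of all genes passed, 9.72% higher and 10.6% lower. The 6 with the smallest p were among the 7 above, and the other 5, GLB1, CTSA, LAMP1, LAMP2 and UVRAG, had log2 changes between -0.15 and 0.18. Without vehicle replicate 1, 6 members were called, and 6 to 8 when any other library was left out.

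Among the other genes of the pathway, NPC1, the lysosomal cholesterol exporter, rose by 0.67 ± 0.06 from the low to the high dose of Scutellariae Radix. In that comparison 16.3% of all genes passed, 7.92% higher and 8.42% lower, the shares to set beside the counts that follow. Of 40 further hydrolases 3 rose and 11 fell, with IDS at 0.47, FUCA1 at -0.51 and CTSS at -0.84. ATP6V1B1 fell by 1.35 on the log2 scale and no other of the 13 further pump genes passed. Of the receptors none rose and 2 fell, NBR1 and CALCOCO1, at -0.28 and -0.26. Of the machinery 4 rose and 1 fell, with ATG4D at 0.45. In nutrient sensing 3 rose and 2 fell, DDIT4 by 0.81 and SESN1 at -0.90.

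The high doses of Scutellariae Radix and Pinelliae Tuber, both 500 µg/mL and in the same library set, allow a direct comparison at equal dose. Of 36 members 11 differed, 9 higher and 2 lower with Scutellariae Radix, where 16.9% of all genes passed, 8.1% higher and 8.77% lower. SQSTM1 stood at 572 to 586 CPM against 371, 357 and 346 with Pinelliae Tuber, a difference of 0.69 ± 0.06 (log2). NEU1 was at 64.9 to 68.5 CPM against 46.8, 48.1 and 44.3, a difference of 0.53 ± 0.05. MAP1LC3B, at 52.9 to 56.9 CPM, lay above the 45.9, 43.8 and 43.5 CPM of Pinelliae Tuber. TFE3, CTSL and GLA were higher by 0.33, 0.63 and 0.31, and GABARAPL1, LAMP2 and CTSD by 0.13 to 0.33. CTSB and CTSZ were lower, by -0.40 and -0.22.

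In both gingers a single member passed from the low to the high dose, SQSTM1. With Zingiberis Rhizoma Recens it stood at 473, 469 and 484 CPM at the high dose, 389, 382 and 393 at the medium dose and 430, 363 and 397 at the low dose. The high dose did not overlap the others, the medium dose lay within the range of the low dose, and the change from low to high was 0.26 ± 0.06 (adjusted p = 0.00731), where 1.79% of all genes passed. The low-dose library at 430 CPM is among the 4 that stand apart. With Zingiberis Rhizoma it stood at 468, 496 and 451 CPM at the high dose, 394, 375 and 376 at the medium dose and 361, 382 and 375 at the low dose, a change of 0.34 ± 0.06 (adjusted p = 2.42e-04), where 0.915% of all genes passed. The fresh ginger call was lost when the 2 doses were fitted alone (0.430), where 23 of all genes were called in place of 298. MGAT4B, the opposite-strand neighbour of SQSTM1, stood at 77.6% of its mean level over all libraries. MGAT4B changed by 0.23 ± 0.06 with Zingiberis Rhizoma and by -0.01 with fresh ginger from low to high dose, and passed in neither. Without knowing whether counting used strand, the reads of SQSTM1 and MGAT4B cannot be told apart. CTSL, the cathepsin that rose with Coptidis Rhizoma, had log2 changes of 0.16 and 0.38 in the gingers and did not pass.

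Against vehicle SQSTM1 was again the member that passed at the high dose of each ginger, with 0.30 and 0.29, where 2.08% and 0.789% of all genes passed. Both calls were lost when the compared libraries were fitted alone, at adjusted p of 0.0627 and 0.574. In those fits 74 and 10 of all genes were called, in place of 346 and 131. Of the 6 further lists, fresh ginger changed IDS by 0.28, MAN2B1 by -0.26 and ATP6V1B1 by -0.58 from the low to the high dose, and dried ginger changed none of their genes. Against vehicle, the high dose of fresh ginger gave IDS at 0.32, ATP6V1B1 at -0.63, MAP1LC3A at -0.91 and RRAGA at -0.28 as called genes of these lists, and that of dried ginger gave ATP6V1B1 at -0.38.

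Pinelliae Tuber gave 0 called members of 36 from low to high dose in edgeR and 0 in DESeq2, with 2 at an unadjusted p below 0.05, where 0.0421% of all genes passed. The members' log2 changes ran from -0.25 to 0.19. NEU1 was lower at the high dose than in vehicle, at 46.8, 48.1 and 44.3 CPM against 58.4, 53.2 and 55.1. The difference was 0.26 on the log2 scale (adjusted p = 0.00937), where 0.187% of all genes passed. That call was lost without Pinelliae Tuber high replicate 3 (0.131), and also without vehicle replicate 1. The low-dose libraries, at 54.0, 51.7 and 53.2 CPM, did not overlap the high-dose ones.

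Zizyphi Fructus, the jujube fruit, gave 0 called members in edgeR from low to high dose, with 10 at an unadjusted p below 0.05, where 0.0482% of all genes passed (8 genes). DESeq2 called 1 member (SQSTM1, adjusted p = 0.0399) and 583 of all genes. The values turned on replicate 3 of the high dose, which is among the 4 libraries that stand apart. SQSTM1 was at 373, 385 and 477 CPM at the high dose and 372, 350 and 354 at the low dose. TFEB was at 14.6, 13.6 and 20.5 CPM against 13.7, 12.9 and 11.4, and GLA at 34.8, 35.8 and 50.8 against 31.5, 35.9 and 36.9. In each of these genes the third library was the highest of all 6. TPP1, at 134, 134 and 102 CPM, was lowest in the same library. Without high replicate 1 the count rose to 10 members, and without high replicate 2 to 6. In these fits 4375 and 1603 of all genes were called. Without high replicate 3 no member passed. Against vehicle 0 members passed in edgeR and in DESeq2, with 1 at an unadjusted p below 0.05, where 0.0181% of all genes passed.

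With wortmannin, which blocks the lipid kinases of autophagy, 9 of 36 members differed from vehicle, 3 higher and 6 lower. Of all genes 20.6% passed, 9.72% higher and 10.8% lower. Wortmannin and vehicle lie in separate library sets, so a difference between them cannot be told apart from a difference between sets. LAMP3, at 0.947, 1.16 and 1.28 CPM against 0.288, 0.167 and 0.463, rose by 1.93 ± 0.37 (adjusted p = 1.04e-04). These levels lie above all other groups except Coptidis Rhizoma high. WIPI1, at 7.78, 8.67 and 7.38 CPM against 6.15, 4.83 and 5.28, rose by 0.57 ± 0.12 (adjusted p = 5.29e-04). Its opposite-strand neighbour ARSG rose by 0.63 in the same comparison, and without knowing whether counting used strand the reads of the pair cannot be told apart. TPP1, a peptidase, was at 153, 157 and 152 CPM against 119, 130 and 132, a change of 0.28 ± 0.06 (adjusted p = 0.00115).

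GLA fell with wortmannin, from 36.8, 34.7 and 35.7 CPM to 27.6, 28.1 and 25.6, a change of -0.40 ± 0.09 (adjusted p = 6.80e-04). TFE3 fell from 60.3, 61.7 and 63.5 CPM to 54.3, 53.7 and 52.3, a change of -0.21 ± 0.05 (adjusted p = 0.00199). For all 5 of these members the wortmannin libraries did not overlap vehicle. ATP6V1B2, ATG5, LAMP1 and MAP1LC3B also fell, by 0.21, 0.21, 0.11 and 0.15 on the log2 scale, and these 4 calls were lost in several alternatives, with adjusted p up to 0.452. ULK1, SQSTM1 and TFEB had log2 changes of 0.18, 0.13 and 0.02 and did not pass; SQSTM1 was called (adjusted p = 0.00197) without the 4 libraries that stand apart, which include vehicle replicate 1. The proton pump subunits had log2 changes of -0.21 to -0.03.

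With wortmannin 9.72% of all genes passed as higher and 10.8% as lower. Of the other lists, 15 of 40 further hydrolases were higher with wortmannin and 2 were lower. GAA changed by 1.04 ± 0.14, HGSNAT by 0.62 ± 0.10 and LIPA by 0.51 ± 0.05. Of 13 receptors 5 were higher, OPTN by 0.41 and CALCOCO1 by 0.36 among them, and none was lower. In the autophagy machinery 2 rose and 6 fell, with ATG3 at -0.38 and WDR45B at -0.22. Of the further pump genes ATP6V1B1 rose by 0.73, and ATP6V0B and ATP6V0C fell by 0.31 and 0.32. RHEB, RRAGC and DDIT4 fell by 0.33, 0.30 and 0.43 among 4 lower and 1 higher of the nutrient-sensing genes, and of the membrane and transport genes 4 rose. LYZ, which HT29 cells expressed in every library, rose by 0.40 and CD68 by 0.55 in the same comparison, and their part in the result was not tested.

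**Figure D4:**
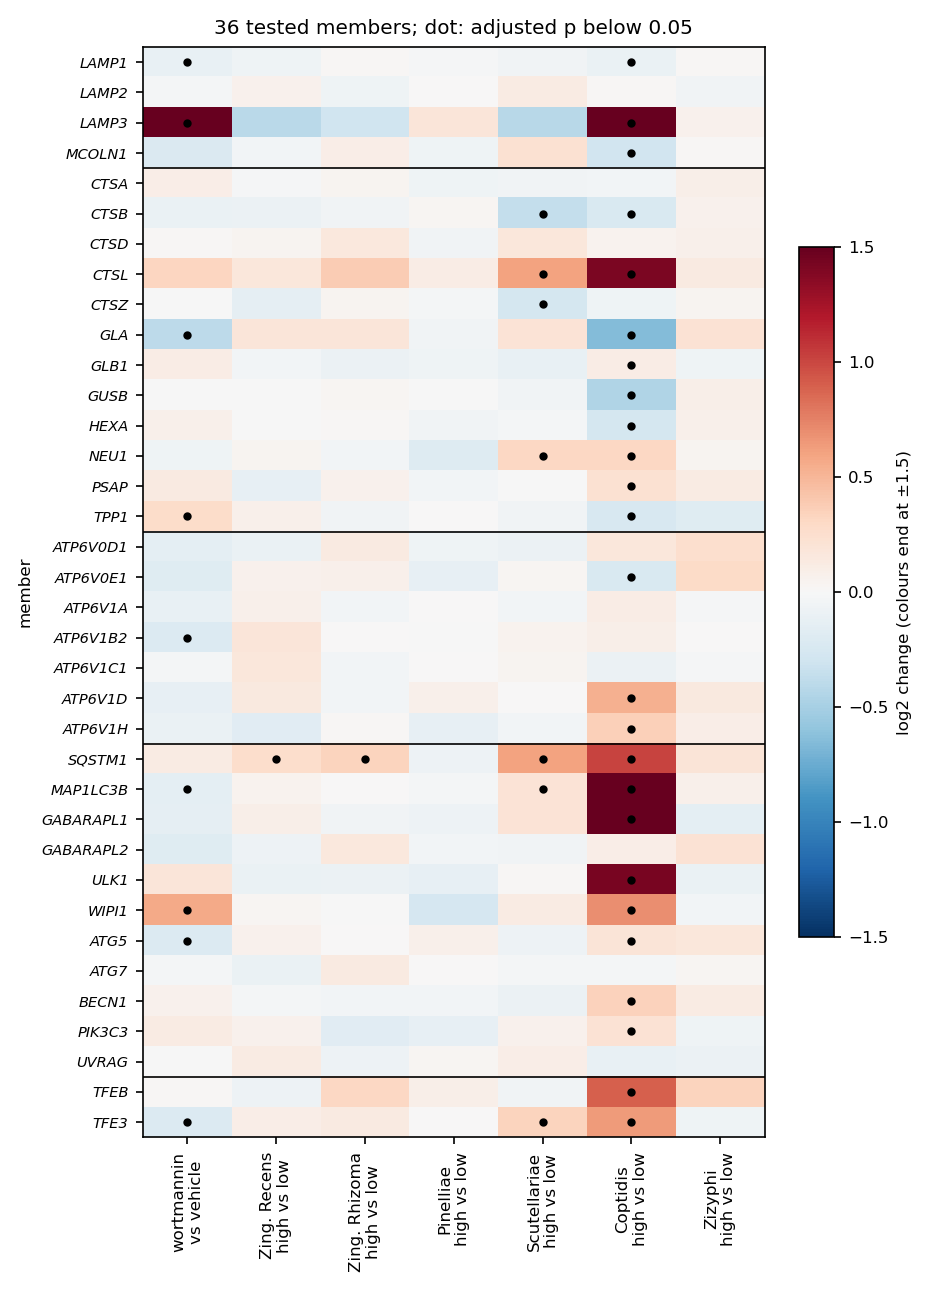
Log2 change of the 36 tested members (rows, by role) in 7 comparisons (columns); red is higher, blue lower, colours end at ±1.5, and dots mark adjusted p below 0.05. Coptidis Rhizoma carries 25 dots, wortmannin 9, Scutellariae Radix 7, each ginger 1, and Pinelliae Tuber and Zizyphi Fructus 0.

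Whether Coptidis Rhizoma and Scutellariae Radix differ in these genes was tested as the difference of their changes from low to high dose, at doses that are not the same. It passed for 20 of 36 members, 16 higher and 4 lower in Coptidis Rhizoma, where 38.8% of all genes passed, 20.9% higher and 17.8% lower. MAP1LC3B, ULK1 and GABARAPL1 rose more with Coptidis Rhizoma, by 1.70 ± 0.08, 1.40 ± 0.11 and 1.37 ± 0.15 on the log2 scale. GLA changed in opposite directions, with values of -0.66 for Coptidis Rhizoma and 0.21 for Scutellariae Radix, the latter called only in some alternatives. The corresponding test against wortmannin, whose change is measured against vehicle in another library set, passed for 19 members, 16 higher and 3 lower. Of all genes 42.6% passed, 22.3% higher and 20.3% lower. SQSTM1 and TFE3 differed there by 0.89 ± 0.08 and 0.84 ± 0.07.

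Some members kept to a narrow range through all 60 libraries. LAMP2, a receptor of chaperone-mediated autophagy, ran from 89.5 to 111 CPM with a median of 98.0. ATG7, the enzyme that activates the LC3 proteins, ran from 14.5 to 20.8 CPM, and UVRAG, a partner of BECN1, from 19.9 to 26.5. The pump subunits ATP6V1A and ATP6V1C1 ran from 142 to 185 and from 66.0 to 82.3 CPM. CTSD, the main aspartic protease of the lysosome, ran from 584 to 798 CPM, and CTSA, which protects NEU1 and GLB1, from 183 to 240. In LAMP2, ATG7, UVRAG, CTSD and CTSA the Coptidis Rhizoma high libraries overlapped the others. In other members the Coptidis Rhizoma high libraries lay outside the range of the rest. GUSB ran from 55.7 to 73.3 CPM in the 57 other libraries and from 44.9 to 47.9 in Coptidis Rhizoma high, and HEXA from 93.6 to 119 against 82.6 to 88.2. ATP6V1D and ATP6V1H ran from 26.4 to 37.5 and from 37.7 to 48.0 CPM in the others, and from 39.2 to 42.3 and from 51.9 to 55.6 there. BECN1 was at 75.9 to 81.2 CPM against a highest value of 75.7 elsewhere, which was Zizyphi Fructus high replicate 3.

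At the lower doses few members left the level of vehicle. Over the 6 extracts at the medium dose 4 results passed. With Scutellariae Radix CTSB was lower and TFE3 higher, where 6.64% of all genes passed. With Coptidis Rhizoma ULK1 was higher by 0.32 and MCOLN1 lower, at -0.38, where 6.32% passed. Among the other 4 extracts no member passed in edgeR or in DESeq2 and 3 to 7 had an unadjusted p below 0.05, where 0% (Zingiberis Rhizoma Recens and Zizyphi Fructus), 0.012% (Zingiberis Rhizoma) and 0.0482% (Pinelliae Tuber) of all genes passed. Each of the 4 calls was lost when a single library was left out, with adjusted p up to 0.129. At the low dose 0 results passed over the 6 extracts in edgeR and 0 in DESeq2, with 1 to 4 members per extract at an unadjusted p below 0.05, where 0 to 0.397% of all genes passed.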

How the data were processed

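The authors deposited 1 table of RSEM expected counts per gene; per the submitters' processing notes FastQC 0.11.9, Trim Galore 0.6.5, STAR 2.7.3a, RSEM 1.3.3 and GRCh38 were used, and the annotation release is not given in the sources used here. Of its columns, 210 belong to samples of other series and were not used. The expected counts (8.75% not whole) were rounded. Genes were matched by Ensembl identifier to GENCODE 29 (57055 of 60675). edgeR 4.0.16 in R 4.3.3 fitted all 60 libraries with 1 coefficient per group (TMM, filterByExpr, robust quasi-likelihood F test, 40 residual degrees of freedom); p-values were Benjamini-Hochberg adjusted over 16608 genes in each of 30 comparisons. CPM divide counts by the TMM-scaled library size. SE is the log2 change divided by the square root of F, so it is approximate. The scripts were tested on simulated data. Depth was 11093671 to 34447663 counts per library, which limits the precision of low genes such as LAMP3.

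Same-numbered replicates do not pair: their deviations correlated over 0.1 in all 3 numbers in 1 of 28 comparisons (Zingiberis Rhizoma Recens low against vehicle: 0.344, 0.114 and 0.109), in which no member passed with or without the block. No libraries were copies (smallest chi-square per gene 2.34). The genes, lists and tests were chosen with earlier results of these data known. Full statistics went to at most the 8 called members of smallest p per comparison, and up to 3 called genes of smallest p per further list. Alternatives were DESeq2 1.42.0 size factors, the DESeq2 Wald test, no low-count filter, the replicate block, only the compared libraries, without the 4 libraries that stand apart, and each library left out in turn.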

Additional observations from a re-analysis of the deposited data

Results flagged for a closer look

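The changes with Coptidis Rhizoma from low to high dose were set against those with Scutellariae Radix, and the difference was tested as an interaction in edgeR's quasi-likelihood fit. The 8 members of smallest p differed by 1.70 ± 0.08 (MAP1LC3B, adjusted p = 3.98e-24), 1.40 ± 0.11 (ULK1, 2.4e-15), 6.56 ± 0.59 (LAMP3, 3.53e-13), 1.37 ± 0.15 (GABARAPL1, 1.24e-10), -0.86 ± 0.12 (GLA, 6.07e-08), 0.94 ± 0.15 (TFEB, 5.87e-07), 0.43 ± 0.08 (BECN1, 8.32e-06) and -0.40 ± 0.08 (GUSB, 1.67e-05) on the log2 scale. A positive value is a larger rise with Coptidis Rhizoma.

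The same changes with Coptidis Rhizoma were set against wortmannin against vehicle, which lie in separate library sets. The 8 members of smallest p differed by 2.06 ± 0.08 (MAP1LC3B, adjusted p = 1.72e-27), 0.84 ± 0.07 (TFE3, 2.41e-14), 1.25 ± 0.11 (ULK1, 1.11e-13), 1.71 ± 0.15 (GABARAPL1, 2.38e-13), 0.89 ± 0.08 (SQSTM1, 7.44e-13), 4.22 ± 0.56 (LAMP3, 2.02e-08), 0.66 ± 0.10 (ATP6V1D, 9.28e-07) and 0.88 ± 0.15 (TFEB, 2.36e-06). MAP1LC3B, GABARAPL1, TFE3 and ATP6V1D had changes of opposite sign in the 2 treatments, those of GABARAPL1 and ATP6V1D with wortmannin not called. The call of MAP1LC3B with wortmannin was lost in 5 alternatives, with edgeR adjusted p up to 0.251.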

How the results depend on the processing

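Counts of called members are given against the count in the report. Without the low-count filter wortmannin gave 5 in place of 9, Zizyphi Fructus from low to high dose 3 in place of 0, Scutellariae Radix medium against low 0 in place of 1 and high against vehicle 7 in place of 11, and the low doses against vehicle 1 in place of 0. The Zizyphi Fructus count comes with 1982 of all genes called in place of 8. The low-dose call was ATP6V0D1 with Zingiberis Rhizoma, where 591 of all genes were called in place of 0. For wortmannin 3305 of all genes were called in place of 3414. For Scutellariae Radix they were 502 in place of 556 from low to medium dose, and 3307 in place of 3378 at the high dose against vehicle. With only the compared libraries fitted, wortmannin gave 5, Zingiberis Rhizoma Recens from low to high dose 0, Coptidis Rhizoma medium against low 2, and the high doses of both gingers and Pinelliae Tuber against vehicle 0 each. Of all genes, 2956 were called for wortmannin, 23 for Zingiberis Rhizoma Recens and 482 for Coptidis Rhizoma, in place of 3414, 298 and 216. For the gingers and Pinelliae Tuber against vehicle 74, 10 and 9 were called, in place of 346, 131 and 31. The DESeq2 Wald test gave 1 for Zizyphi Fructus, with 583 of all genes called. Without the 4 libraries that stand apart Pinelliae Tuber gave 1, Scutellariae Radix medium against low 2, Coptidis Rhizoma medium against low 2 and the medium doses against vehicle 8 in place of 4. In the first comparisons 15, 971 and 367 of all genes were called, in place of 7, 556 and 216. At the medium doses of Scutellariae Radix and Coptidis Rhizoma against vehicle 901 and 981 were called, in place of 1103 and 1049. The replicate block gave 25 for Coptidis Rhizoma and 7 for Scutellariae Radix from low to high dose, as without it, and 8 in place of 9 for wortmannin, where MAP1LC3B was lost (adjusted p = 0.0514); it moved no count by more than 1.5 times.

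With each library left out in turn, the counts ran from 6 to 7 for wortmannin. From low to high dose they ran from 1 to 3 for Zingiberis Rhizoma Recens, with 3 without low replicate 2, were 1 throughout for Zingiberis Rhizoma and 0 for Pinelliae Tuber, and ran from 6 to 8 for Scutellariae Radix, 19 to 25 for Coptidis Rhizoma and 0 to 10 for Zizyphi Fructus. From low to medium dose they were 0 for Scutellariae Radix and for Coptidis Rhizoma. Against vehicle at the high dose they ran from 1 to 2 (Zingiberis Rhizoma Recens, 2 without vehicle replicate 3), 1 to 1 (Zingiberis Rhizoma), 0 to 1 (Pinelliae Tuber), 6 to 8 (Scutellariae Radix), 24 to 27 (Coptidis Rhizoma) and 0 to 0 (Zizyphi Fructus). They ran from 17 to 20 and 18 to 20 for Coptidis Rhizoma minus Scutellariae Radix and minus wortmannin, and from 8 to 10 for Scutellariae Radix against Pinelliae Tuber. Over the 6 extracts against vehicle they ran from 2 to 5 at the medium dose, with 2 without vehicle replicate 1 or Scutellariae Radix medium replicate 1, and were 0 at the low dose. The cause of these moves was not tested.

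Of 75 results for single members none reversed in any of these alternatives, and 20 fell short of the threshold in at least 1. The 75 leave out the 11 calls of Scutellariae Radix and the 26 of Coptidis Rhizoma at the high dose against vehicle. For Coptidis Rhizoma minus Scutellariae Radix, Coptidis Rhizoma minus wortmannin and Scutellariae Radix against Pinelliae Tuber, they hold only the members of smallest p. DESeq2 size factors and the DESeq2 Wald test kept all 75.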
